A study of Mus musculus with 37 samples.

Results

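The genes described here are 31 genes of the endoplasmic reticulum (ER) stress response, or unfolded protein response, out of 18193 genes with a probe set of 1 gene symbol on the array. Where several probe sets carried only a gene's symbol, the one brightest on average across the 37 arrays stood for it, and the rule used no measured difference between groups. They were split into a PERK-ATF4 arm of 7 genes, an IRE1-XBP1 arm of 10, an ATF6 arm of 10 and 4 genes in no arm list, and also by what their proteins do. All 31 lay above the filter on dim probe sets, a group mean of at least 3.60 on the log2 scale, which left 13071 genes to test.

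Temporal lobes of mice were profiled on Affymetrix arrays to ask which transcripts change when Wfs1 is lost. Wfs1 encodes wolframin, an ER membrane protein whose loss causes Wolfram syndrome in humans. The groups were 10 lobes of Wfs1-deficient (KO) mice and 9 of wild-type (WT) mice on the background that the labels call 129SV and the design text 129S6, and 9 KO and 9 WT lobes on the background called C57 or C57B6. The backgrounds are written 129 and C57 here. The labels give neither sex, age, litter, the way Wfs1 was inactivated, nor whether every array came from its own animal, so the p-values measure the spread between these samples. All 4 groups shared the dissection, the freezing in liquid nitrogen and the labelling of total RNA, and no group received a treatment.

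As background, proteins that fail to fold in the ER are sensed by 3 membrane proteins. PERK slows translation and raises ATF4, IRE1 splices the Xbp1 transcript into its active form, and ATF6 is cut to release a transcription factor, and together these raise chaperones, folding enzymes and degradation factors. In humans and mice wolframin has been tied to this response in the insulin-producing cells of the pancreas. Transcript levels were measured here, while the splicing of Xbp1, the cleavage of ATF6 and the phosphorylation of PERK were not.

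Many of these genes carry the ER stress element (ERSE) at their start, so the promoters of the genes on which the results below turn are shown where a sequence was at hand. RefSeq promoters of GRCm38.p6, from 250 bases before to 50 bases after the gene start, were matched for 28 of the 31 genes. The ERSE was searched as CCAAT and CCACG with any 9 bases between them, and its variant ERSE-II as ATTGG and CCACG with any 1 base between them, each on both strands. ERSE was found in 10 of the 28 promoters (35.7%), against 0.119% of all 32817 promoters of that length, and ERSE-II in 2 (7.14%), against 0.0366%. The amino acid response element, to which ATF4 binds, was searched as TGATGNAA on both strands and was found in 4 (14.3%), against 3.97%. The XBP1 element TGACGTGG was found in 0 of the 28, against 0.676%. Capitals mark the ERSE in Hspa5 (chr2:34771840-34772139, plus strand, first base of the element 65 bases before the start), Pdia6 (chr12:17266339-17266638, plus strand, 98 bases before) and Creld2 (chr15:88819396-88819695, plus strand, 126 bases before, element read on the other strand). In Dnajb11 (chr16:22857595-22857894, plus strand, 7 bases after the start) they mark the ERSE-II, and in Chac1 (chr2:119350992-119351291, plus strand, 193 bases before, read on the other strand) the amino acid response element. A match to these letters is a description of the window and not a measured binding site.
Hspa5: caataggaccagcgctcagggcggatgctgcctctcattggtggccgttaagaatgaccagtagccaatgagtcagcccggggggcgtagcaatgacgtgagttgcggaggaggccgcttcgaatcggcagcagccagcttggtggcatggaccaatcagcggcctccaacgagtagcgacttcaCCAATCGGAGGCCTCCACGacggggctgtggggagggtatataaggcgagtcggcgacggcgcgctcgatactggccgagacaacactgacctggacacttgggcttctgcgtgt
Pdia6: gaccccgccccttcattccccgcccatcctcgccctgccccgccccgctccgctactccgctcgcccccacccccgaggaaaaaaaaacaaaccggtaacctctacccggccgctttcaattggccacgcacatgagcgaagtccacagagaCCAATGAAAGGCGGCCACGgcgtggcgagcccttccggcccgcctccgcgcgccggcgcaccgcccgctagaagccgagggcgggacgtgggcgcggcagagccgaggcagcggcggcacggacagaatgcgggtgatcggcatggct
Creld2: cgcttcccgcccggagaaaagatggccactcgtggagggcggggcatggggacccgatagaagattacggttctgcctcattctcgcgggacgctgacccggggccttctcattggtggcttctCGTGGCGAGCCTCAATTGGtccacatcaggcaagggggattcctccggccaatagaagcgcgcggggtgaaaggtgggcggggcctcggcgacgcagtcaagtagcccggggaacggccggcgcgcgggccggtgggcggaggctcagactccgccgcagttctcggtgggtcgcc
Dnajb11: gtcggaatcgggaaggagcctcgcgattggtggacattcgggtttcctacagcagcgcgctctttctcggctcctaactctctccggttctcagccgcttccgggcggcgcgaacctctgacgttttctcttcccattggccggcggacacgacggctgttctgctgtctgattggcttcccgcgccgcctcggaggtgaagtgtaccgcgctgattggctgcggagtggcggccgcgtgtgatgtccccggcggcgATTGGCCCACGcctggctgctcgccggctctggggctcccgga
Chac1: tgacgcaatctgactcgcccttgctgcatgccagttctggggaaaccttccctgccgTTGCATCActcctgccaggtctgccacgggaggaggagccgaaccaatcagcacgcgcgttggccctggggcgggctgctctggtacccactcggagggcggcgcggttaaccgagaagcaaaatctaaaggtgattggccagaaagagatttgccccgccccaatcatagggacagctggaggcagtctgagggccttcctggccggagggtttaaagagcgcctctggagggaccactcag

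Values are log2 signals as the authors deposited them, and array medians lay between 4.30 and 4.36. The Wfs1 signal was 3.11 ± 0.28 (SD, n = 10) in 129 KO lobes and 9.33 ± 0.12 (n = 9) in 129 WT lobes. In C57 it was 3.03 ± 0.26 (n = 9) in KO and 9.32 ± 0.17 (n = 9) in WT, and the highest KO array (3.60) lay below the lowest WT array (9.11), as the genotype labels require. Transcripts of neurons were bright on every array, with Snap25 between 11.49 and 12.27 and Camk2a between 10.93 and 11.93. Genes typical of striatum were also present, such as Penk between 10.01 and 10.88, and Ttr of the choroid plexus ran from 4.39 to 13.00. Of the markers of plasma and secretory cells, Jchain stayed at or below 3.14, Mzb1 ran from 3.44 to 4.12 and Sdc1 from 3.26 to 4.29. Deviations from the group means divided the 37 arrays into 2 sets. They were taken over the 200 genes with the widest such deviations among genes in none of the lists used here. These 200 stayed among the 13071 genes, so shares of all genes that passed between the sets include genes that defined them. A p-value between the sets compares arrays that were divided by their own values. Set 2 held 5 129 KO, 4 129 WT, 4 C57 KO and 5 C57 WT arrays, and set 1 held 5, 5, 5 and 4. In every group set 2 held the higher sample numbers and set 1 the lower ones. The labels do not say what the numbers stand for, and the sets are not groups of the study.

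Loss of Wfs1 went with no detectable change in any of the 31 genes. Differences were tested with limma on all 37 arrays, and a gene passed where its p, adjusted over the 13071 genes by the Benjamini-Hochberg method, was under 0.05. In C57, 0 of 31 passed and 0 had an unadjusted p under 0.05, while 14 of the 13071 genes passed (0.107%), 8 of them higher in KO (0.0612%). In 129, 0 of 31 passed and 0 had an unadjusted p under 0.05, while 1 gene, Wfs1 itself, passed (0.00765%). The median KO minus WT difference of the 31 was 0.02 in C57, against 0.02 over all genes tested, and -0.03 in 129, against 0.00. The bound farthest from 0 among the 95% intervals was 0.29 in C57, for Pdia3, a 1.23-fold difference, and -0.32 in 129, for Dnajc3, a 1.25-fold difference. Of the 31 intervals, 24 in C57 and 25 in 129 lay wholly within 0.25 on either side of 0. Since each array measured bulk tissue, fewer cells of a type and less RNA per cell cannot be told apart in any value given here.

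**Figure D1:**
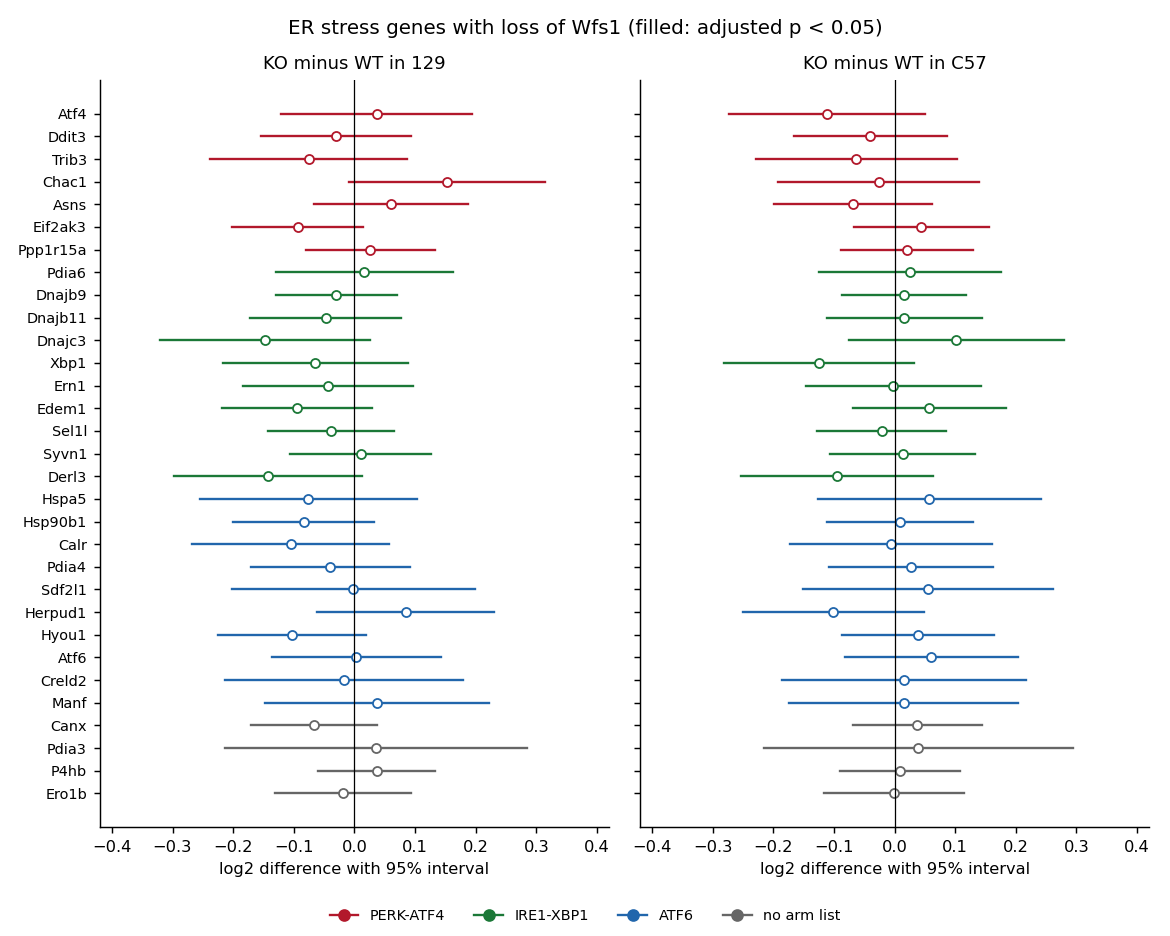
KO minus WT difference (log2, with 95% interval) of each of the 31 genes in 129 (left) and C57 (right), coloured by arm. None of the points is filled, since 0 of 31 passed an adjusted p of 0.05 in either strain, and the intervals reach at most -0.32 in 129 (Dnajc3) and 0.29 in C57 (Pdia3).

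The 3 sensors kept close to their WT levels. Ern1, which encodes IRE1, averaged 5.93 ± 0.17 in 129 KO and 5.97 ± 0.097 in 129 WT, and 6.07 ± 0.16 in C57 KO and 6.07 ± 0.16 in C57 WT (SD, n = 10, 9, 9 and 9 here and below). Eif2ak3, which encodes PERK, averaged 6.54 ± 0.10 in 129 KO and 6.63 ± 0.11 in 129 WT, and 6.59 ± 0.14 in C57 KO and 6.54 ± 0.085 in C57 WT. Atf6 averaged 6.76 ± 0.15 in 129 KO and 6.76 ± 0.11 in 129 WT, and 6.85 ± 0.17 in C57 KO and 6.79 ± 0.15 in C57 WT. The largest of these differences, -0.09 for Eif2ak3 in 129 (SE 0.05, unadjusted p = 0.0867), was smaller than the SD among the arrays of either group.

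The transcription factors of the response overlapped between genotypes as well. Ddit3, which encodes the death-promoting factor CHOP, had a lowest, median and highest signal of 6.69, 6.90 and 7.28 in 129 KO, against 6.83, 6.98 and 7.05 in 129 WT. In C57 Ddit3 had 6.62, 6.85 and 7.11 in KO, against 6.72, 6.90 and 7.02 in WT. The KO range contained the whole WT range in both strains, and the differences were -0.03 (SE 0.06, limma adjusted p = 0.9997) in 129 and -0.04 (SE 0.06, adjusted p = 0.975) in C57. Xbp1, the target of IRE1, had 9.23, 9.67 and 10.24 in 129 KO, against 9.57, 9.71 and 9.98 in 129 WT. It had 9.44, 9.56 and 9.69 in C57 KO, against 9.57, 9.71 and 9.79 in C57 WT. The genotypes overlapped in both strains. The C57 difference of Xbp1, -0.12 (SE 0.08, adjusted p = 0.868), was the most negative of the 31 there, and that in 129 was -0.06 (SE 0.08, adjusted p = 0.9997), or -0.12 without 129 KO array 59 (unadjusted p = 0.0606) and -0.01 without 129 KO array 53. Atf4 averaged 8.97 ± 0.22 in 129 KO and 8.93 ± 0.14 in 129 WT, and 8.72 ± 0.17 in C57 KO and 8.83 ± 0.14 in C57 WT. Its differences were 0.04 (SE 0.08) and -0.11 (SE 0.08), and neither passed.

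None of the targets of ATF4 and CHOP passed, and in 129 the values of Chac1 and Asns were smaller without KO array 59. Chac1, which encodes an enzyme that breaks down glutathione, averaged 6.48 ± 0.26 in 129 KO and 6.33 ± 0.13 in 129 WT, a difference of 0.15 (SE 0.08, unadjusted p = 0.064, adjusted p = 0.9997). Without array 59, at 7.08 against 6.70 for the next, the Chac1 difference was 0.09 (unadjusted p = 0.208). In C57 Chac1 averaged 6.19 ± 0.18 in KO and 6.21 ± 0.087 in WT. Asns, asparagine synthetase, averaged 9.11 ± 0.20 in 129 KO and 9.05 ± 0.073 in 129 WT, and 8.98 ± 0.13 in C57 KO and 9.05 ± 0.079 in C57 WT. Its 129 difference of 0.06 was 0.01 without array 59, which also had the lowest summed signal of neuron markers of all arrays, 40.45. The pseudokinase gene Trib3 lay near the filter, at 3.97 ± 0.19 in 129 KO and 4.05 ± 0.22 in 129 WT, and at 3.94 ± 0.17 in C57 KO and 4.01 ± 0.12 in C57 WT. Ppp1r15a, which encodes the phosphatase subunit GADD34 that restarts translation, averaged 6.37 ± 0.15 in 129 KO and 6.35 ± 0.086 in 129 WT, and 6.33 ± 0.10 in C57 KO and 6.31 ± 0.062 in C57 WT. Over the PERK-ATF4 arm the median difference was 0.03 in 129, where 4 of 7 were positive, and -0.04 in C57, where 2 of 7 were.

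The Hsp70 and Hsp90 chaperones did not separate the genotypes. Hspa5, the main ER Hsp70 known as BiP and GRP78, had a lowest, median and highest signal of 9.85, 10.28 and 10.54 in 129 KO, against 10.03, 10.26 and 10.73 in 129 WT. In C57 Hspa5 had 10.17, 10.32 and 10.42 in KO, against 9.95, 10.31 and 10.53 in WT. The medians of all 4 groups lay between 10.26 and 10.32, and the differences were -0.08 (SE 0.09, limma adjusted p = 0.9997) in 129 and 0.06 (SE 0.09, adjusted p = 0.975) in C57. Hyou1, a large relative of BiP, averaged 8.26 ± 0.10 in 129 KO and 8.36 ± 0.12 in 129 WT, and 8.29 ± 0.17 in C57 KO and 8.25 ± 0.13 in C57 WT. Hsp90b1, which encodes GRP94, averaged 9.46 ± 0.14 in 129 KO and 9.54 ± 0.13 in 129 WT, and 9.54 ± 0.12 in C57 KO and 9.53 ± 0.087 in C57 WT.

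The J proteins, which steer BiP to its clients, did not separate the genotypes, and Dnajc3 had values of opposite sign in the strains. Dnajc3, known as p58IPK, averaged 6.36 ± 0.17 in 129 KO and 6.50 ± 0.19 in 129 WT, a difference of -0.15 (SE 0.09, unadjusted p = 0.0935). In C57 Dnajc3 averaged 6.45 ± 0.15 in KO and 6.35 ± 0.25 in WT, a difference of 0.10 (SE 0.09, unadjusted p = 0.254), which was 0.04 without C57 WT array 42 and 0.06 without C57 KO array 17. The KO effect in C57 minus that in 129 was 0.25 for Dnajc3 (SE 0.12, unadjusted p = 0.0492, limma adjusted p = 0.999). It was the 1 gene of the 31 under an unadjusted p of 0.05 in that comparison, where 0 of 31 and 2 of 13071 genes (0.0153%) passed. Edem1 had 0.15 and Hyou1 0.14, and at the other end stood Herpud1 with -0.19, Chac1 with -0.18 and Atf4 with -0.15. Dnajb9 (ERdj4), Dnajb11 (ERdj3) and Sdf2l1, which works with Dnajb11, had differences between -0.05 and 0.00 in 129 and between 0.02 and 0.05 in C57.

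Lectin chaperones and disulfide enzymes differed by no more than the spread among arrays. Calr, calreticulin, averaged 10.79 ± 0.19 in 129 KO and 10.90 ± 0.15 in 129 WT, and 10.80 ± 0.21 in C57 KO and 10.81 ± 0.16 in C57 WT. Canx, calnexin, averaged 9.68 ± 0.082 in 129 KO and 9.74 ± 0.085 in 129 WT, and 9.78 ± 0.13 in C57 KO and 9.74 ± 0.11 in C57 WT. Of the 5 disulfide enzymes, P4hb, Pdia3, Pdia4, Pdia6 and Ero1b, the KO minus WT differences lay between -0.04 and 0.04 in 129 and between 0.00 and 0.04 in C57. Pdia3 (ERp57), at 8.65 ± 0.17 in 129 KO and 8.62 ± 0.39 in 129 WT, and at 8.73 ± 0.33 in C57 KO and 8.69 ± 0.19 in C57 WT, had the widest spread of the 31.

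Among the genes of ER-associated degradation, Derl3 had the lowest p of the 31 over both strains. Derl3, which encodes a derlin of the retrotranslocation machinery, averaged 4.99 ± 0.20 in 129 KO and 5.13 ± 0.20 in 129 WT, and 5.00 ± 0.13 in C57 KO and 5.10 ± 0.13 in C57 WT. Its mean difference over both strains was -0.12 (SE 0.05, unadjusted p = 0.0363, limma adjusted p = 0.974). In that comparison 0 of 31 passed, 1 of 31 had an unadjusted p under 0.05, and 3 of 13071 genes passed (0.023%). All 31 intervals then lay within 0.25 of 0, with a median of -0.01 against 0.01 over all genes. The other extremes there were Xbp1 (-0.09) and Trib3 (-0.07) below, and Chac1 (0.06), Pdia3 (0.04) and Atf6 (0.03) above. Herpud1, a membrane organiser of degradation, averaged 7.88 ± 0.21 in 129 KO and 7.80 ± 0.11 in 129 WT, and 7.75 ± 0.18 in C57 KO and 7.85 ± 0.084 in C57 WT. Edem1, Sel1l and Syvn1, which select and ubiquitinate misfolded proteins, differed by -0.09, -0.04 and 0.01 in 129 and by 0.06, -0.02 and 0.01 in C57.

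The wider pathway showed no passing gene either. Of 84 further genes of the response, which include amino acid transporters and synthetases under ATF4, translocon and glycan-trimming subunits and apoptosis genes, 76 were tested, and 0 passed for loss of Wfs1 in 129, in C57 or over both strains. In C57, 7 of the 76 had an unadjusted p under 0.05 (9.21%), against 6.37% of all genes, and in 129 it was 0, against 2.13%. Over both strains it was 4 of the 76 (5.26%), against 4.95%, and these shares are not a result about the pathway. Striatum markers, of which 9 of 11 were tested, were lower in KO in all 9 in both strains, with medians of -0.17 in 129 and -0.42 in C57 and 0 of 9 passing. Their summed log2 signal ran from 72.28 to 78.94 in 129 KO and from 75.23 to 79.93 in 129 WT, and from 71.02 to 80.49 in C57 KO and from 74.01 to 83.73 in C57 WT. With this marker level as a covariate the count of the 31 that passed was again 0.

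The comparison of the strains asked whether the background sets the level of these genes. In WT lobes 0 of 31 passed for 129 minus C57, with 1 under an unadjusted p of 0.05 (Pdia4), against 269 of 13071 genes (2.06%), 127 of them higher in 129 (0.972%). In KO lobes 1 of 31 passed, higher in 129 (3.23%), against 400 genes (3.06%), 118 of them higher in 129 (0.903%). Over both genotypes 2 of 31 passed, both higher in 129 (6.45%), against 955 genes (7.31%), 411 of them higher in 129 (3.14%). Taking both directions together, these shares lay near those of all genes in KO lobes and over both genotypes. By direction, 0 of 31 were lower in 129 over both genotypes, against 4.16% of all genes. The 3 strain comparisons share arrays.

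The 2 genes were Chac1 and Atf4, the transcription factor that controls it. Chac1 had a lowest, median and highest signal of 6.21, 6.43 and 7.08 in 129 KO, against 5.99, 6.19 and 6.54 in C57 KO. In WT Chac1 had 6.08, 6.35 and 6.54 in 129, against 6.06, 6.24 and 6.30 in C57. The ranges overlapped in both genotypes, with the 129 median above the highest C57 array in WT. The difference was 0.20 over both genotypes (SE 0.06, limma adjusted p = 0.0189), a 1.15-fold difference, 0.29 in KO (SE 0.08, adjusted p = 0.0299) and 0.12 in WT (SE 0.08, adjusted p = 0.692). Atf4 had 8.65, 8.93 and 9.28 in 129 KO, against 8.57, 8.67 and 9.05 in C57 KO, and 8.73, 8.96 and 9.08 in 129 WT, against 8.64, 8.86 and 9.00 in C57 WT. These ranges overlapped over most of their length, and the difference was 0.17 over both genotypes (SE 0.06, adjusted p = 0.046), 0.25 in KO (SE 0.08, adjusted p = 0.0727) and 0.10 in WT (SE 0.08, adjusted p = 0.75).

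**Figure D2:**
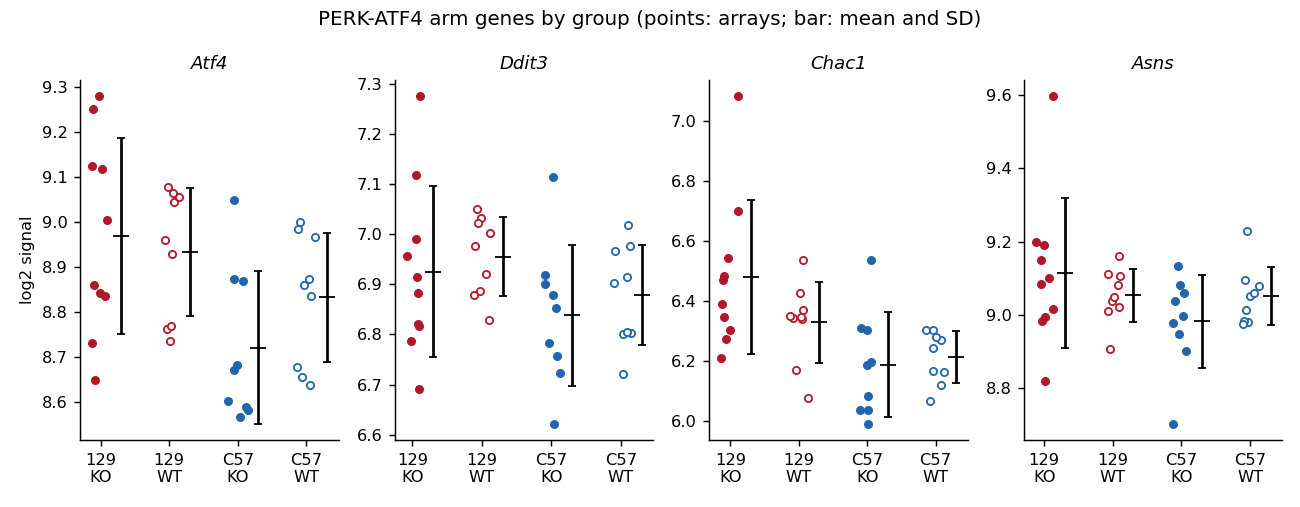
Log2 signal of Atf4, Ddit3, Chac1 and Asns, with 1 point per array and the mean and SD beside each of the 4 groups (129 KO, 129 WT, C57 KO, C57 WT). The 129 points of Atf4 and Chac1 lie somewhat higher than the C57 points and overlap with them, and for Ddit3 and Asns the groups overlap.

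Both results moved with the arrays and settings used, the Chac1 call over both genotypes least. The Chac1 call in KO was lost when the fit held the 2 compared groups alone (adjusted p = 0.145), in set 2 alone (0.245) and set 1 alone (0.393). It was also lost without C57 KO array 3 (adjusted p = 0.0681), 5 (0.0627), 9 (0.059) or 17 (0.0569), and without 129 KO array 51 (0.0505) or 55 (0.0617). Over both genotypes the Chac1 call stood in all 37 fits that left out 1 array, with a limma adjusted p from 0.00615 to 0.033. It stood in 10 of 12 other alternatives. The Atf4 call over both genotypes stood in 14 of the 37 fits that left out 1 array, where its adjusted p ran from 0.0187 to 0.0796. In set 2 alone the Atf4 difference over both genotypes had an adjusted p of 0.084, and in set 1 alone 0.51. That of Chac1 had 0.103 in set 2 alone and 0.326 in set 1 alone. Neither thus passed in a fit on the arrays of 1 set. In the fit of all 37 arrays by set, given below, Chac1 passed in set 2. The Atf4 call was also lost with no filter (0.0568), median centring (0.0532) and the mean of probe sets (0.0895), and the other tested Atf4 probe set was 0.19 higher in 129 (SE 0.08, adjusted p = 0.16). All 7 genes of the PERK-ATF4 arm were higher in 129 over both genotypes, with a median of 0.07, and 5 of them did not pass. Of all genes, 6962 of 13071 were higher in 129 there.

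At the lower end in 129 stood the sensor Ern1, with -0.12 over both genotypes (SE 0.05, unadjusted p = 0.0196, adjusted p = 0.162). Dnajb9, at 9.03 ± 0.10 in 129 KO and 9.14 ± 0.11 in C57 KO, and at 9.06 ± 0.097 in 129 WT and 9.13 ± 0.076 in C57 WT, differed by -0.09 (SE 0.04, adjusted p = 0.143). Pdia4 (ERp72), at 4.74 ± 0.12 in 129 KO and 4.66 ± 0.12 in C57 KO, and at 4.78 ± 0.14 in 129 WT and 4.63 ± 0.17 in C57 WT, differed by 0.11 (SE 0.05, adjusted p = 0.17). None of these 3 passed. The extremes within a genotype were Ern1 (-0.10), Pdia3 (-0.08) and Pdia6 (-0.08) below and Dnajc3 (0.16) and Pdia4 (0.15) above in WT, and Ern1 (-0.14), Dnajb9 (-0.11) and Canx (-0.10) below in KO, where Asns had 0.13 after Chac1 and Atf4. In the wider list 6 of 76 passed over both genotypes (7.89%), near the 7.31% of all genes, so the share says nothing about the list. They were Mapk8 (0.21), Edem2 (0.16) and Bcl2l11 (0.25), higher in 129, and Ssr1 (-0.15), Eif2ak1 (-0.19) and Cisd2 (-0.30), lower in 129. Cisd2 is the gene of a second form of Wolfram syndrome in humans. Oligodendrocyte markers were lower in 129 in 5 of 5 tested, of which 2 passed, with a summed signal of 44.17 to 47.30 in 129 KO and 43.76 to 48.49 in C57 KO, and of 44.48 to 47.02 in 129 WT and 45.32 to 48.69 in C57 WT. Of 5 microglia and 5 astrocyte markers 4 each were lower in 129, and 2 and 1 passed. Of all genes 7.31% passed, and 4.16% passed with a lower value in 129. The part of these cell types in the strain differences was not tested.

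Inside the array sets the strains differed in several of these genes, and Hspa5 differed in opposite directions. In set 2, 7 of 31 passed for 129 minus C57, all higher in 129 (22.6%), against 569 of 13071 genes (4.35%), of which 351 were higher in 129 (2.69%). They were Creld2 (0.35), Hspa5 (0.30), Sdf2l1 (0.30), Chac1 (0.28), Manf (0.27), Xbp1 (0.26) and Pdia4 (0.25). These tests share the spread of all 37 arrays, and fitted on the set 2 arrays alone 4 of the 7 passed, namely Hspa5 (adjusted p = 0.0167), Creld2 (0.0249), Pdia4 (0.0333) and Xbp1 (0.0494). In set 1, 2 of 31 passed, both lower in 129 (6.45%), namely Pdia6 (-0.27) and Hspa5 (-0.24). Of all genes 591 passed there (4.52%), 430 of them lower in 129 (3.29%) and 161 higher (1.23%). Pooled over the sets, the Hspa5 difference was 0.02 (SE 0.06).

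The difference between the sets was itself tested, in a model chosen after these values had been seen. The strain difference in set 2 minus that in set 1 passed for 4 of 31 genes, all positive (12.9%), against 73 of 13071 genes (0.558%), of which 67 were positive (0.513%). Of the 31 genes, 29 were positive, against 7811 of 13071, with a median of 0.16 against 0.03 over all genes. Genes that vary together do not give independent signs. Of the 31, 14 had an unadjusted p under 0.05 (45.2%), against 14.5% of all genes. The 4 were Hspa5 with 0.54 (SE 0.08, limma adjusted p = 0.00109), Creld2 with 0.50 (SE 0.11, adjusted p = 0.0201), Manf with 0.44 (SE 0.10, adjusted p = 0.0194) and Pdia6 with 0.39 (SE 0.08, adjusted p = 0.0102). These are 1.45-, 1.42-, 1.35- and 1.31-fold differences. By p-value Hspa5 ranked 3 among all 13071 genes.

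Hspa5 shows the pattern array by array. In set 2 it had 10.54, 10.27, 10.54, 10.29 and 10.50 in 129 KO and 10.52, 10.73, 10.50 and 10.63 in 129 WT, against 10.31, 10.39, 10.17 and 10.26 in C57 KO and 10.15, 10.31, 10.33, 10.02 and 9.95 in C57 WT. In set 1 it had 10.29, 10.17, 10.14, 9.85 and 10.05 in 129 KO and 10.07, 10.26, 10.15, 10.03 and 10.16 in 129 WT, against 10.38, 10.22, 10.42, 10.33 and 10.32 in C57 KO and 10.40, 10.53, 10.28 and 10.32 in C57 WT. Within 129 the 9 arrays of set 2 thus lay above the 10 of set 1 apart from an overlap between 10.27 and 10.29. Within C57 the arrays of set 2 ran lower and overlapped those of set 1. Set 2 minus set 1 was 0.39 in 129 (SE 0.06, adjusted p = 2.25e-05) and -0.14 in C57 (SE 0.06, adjusted p = 0.191).

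Manf and Creld2 encode small secreted ER proteins that are induced by stress. Manf averaged 8.44 ± 0.15 (SD, n = 9) in 129 and 8.17 ± 0.17 (n = 9) in C57 in set 2, against 8.03 ± 0.12 (n = 10) in 129 and 8.20 ± 0.079 (n = 9) in C57 in set 1. Its 129 arrays did not overlap between the sets, with a lowest of 8.23 in set 2 and a highest of 8.20 in set 1. Creld2 averaged 6.47 ± 0.18 in 129 and 6.12 ± 0.18 in C57 in set 2, against 6.22 ± 0.21 in 129 and 6.37 ± 0.12 in C57 in set 1. Pdia6, a disulfide isomerase that binds BiP, averaged 8.04 ± 0.13 in 129 and 7.92 ± 0.088 in C57 in set 2, against 7.75 ± 0.11 in 129 and 8.02 ± 0.11 in C57 in set 1. By mean, the higher strain for these 3 genes was 129 in set 2 and C57 in set 1.

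**Figure D3:**
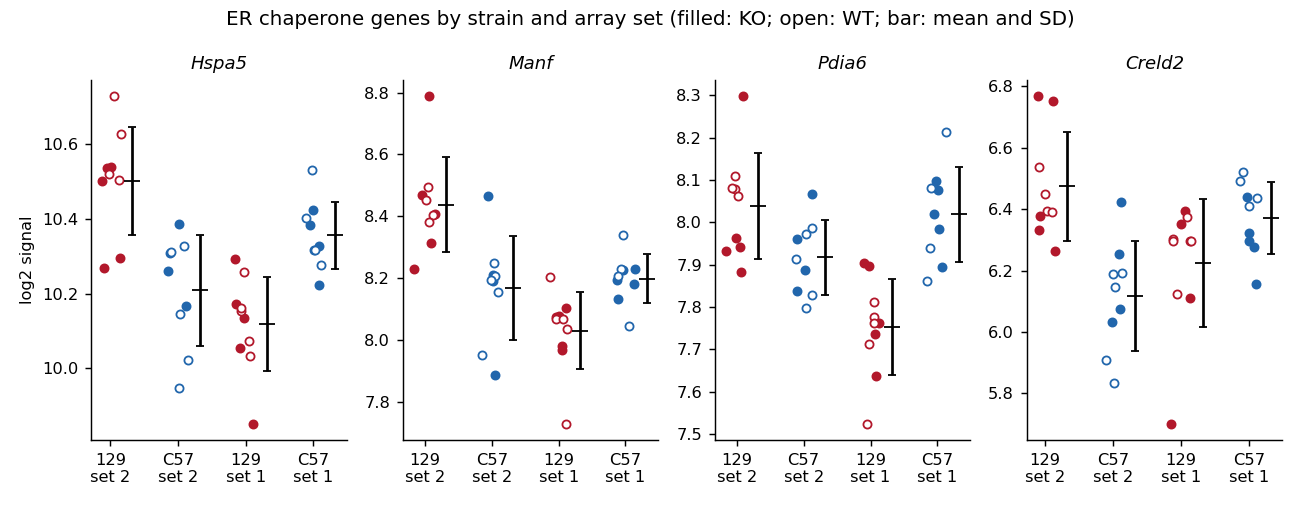
Log2 signal of Hspa5, Manf, Pdia6 and Creld2 by strain within each array set, with KO arrays filled, WT arrays open and the mean and SD beside the points. In all 4 panels 129 has the higher mean in set 2 and C57 the higher mean in set 1. The KO and WT ranges overlap within each strain and set.

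By arm, the values ran highest for ATF6. The ATF6 arm had a median of 0.30 with 10 of 10 positive and 3 passing, the IRE1-XBP1 arm 0.14 with 9 of 10 positive and 1 passing, and the PERK-ATF4 arm 0.07 with 6 of 7 positive and 0 passing. The next 4 by p-value, none of which passed, were Dnajb11 with 0.28 (adjusted p = 0.0832), Xbp1 with 0.31 (0.0904), Hsp90b1 with 0.26 (0.0998) and Sdf2l1 with 0.41 (0.102). Pdia3 had 0.44 with the widest interval of the 31. At the low end Trib3 had -0.21, Syvn1 -0.02 and Ppp1r15a 0.01. The 12 genes with an ERSE or ERSE-II in their promoter include Hspa5, Pdia6, Creld2 and Dnajb11 shown above. They had a median of 0.27, ran from -0.02 to 0.54 and were positive in 11 of 12. The 16 with neither had a median of 0.12, ran from -0.21 to 0.44 and were positive in 15 of 16. These ranges overlapped over most of their length, and the difference was not tested. Manf, Hyou1 and Atf6, with no promoter sequence at hand, were in neither group. Of the wider list 0 of 76 passed, with 16 under an unadjusted p of 0.05 (21.1%), against 14.5% of all genes.

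**Figure D4:**
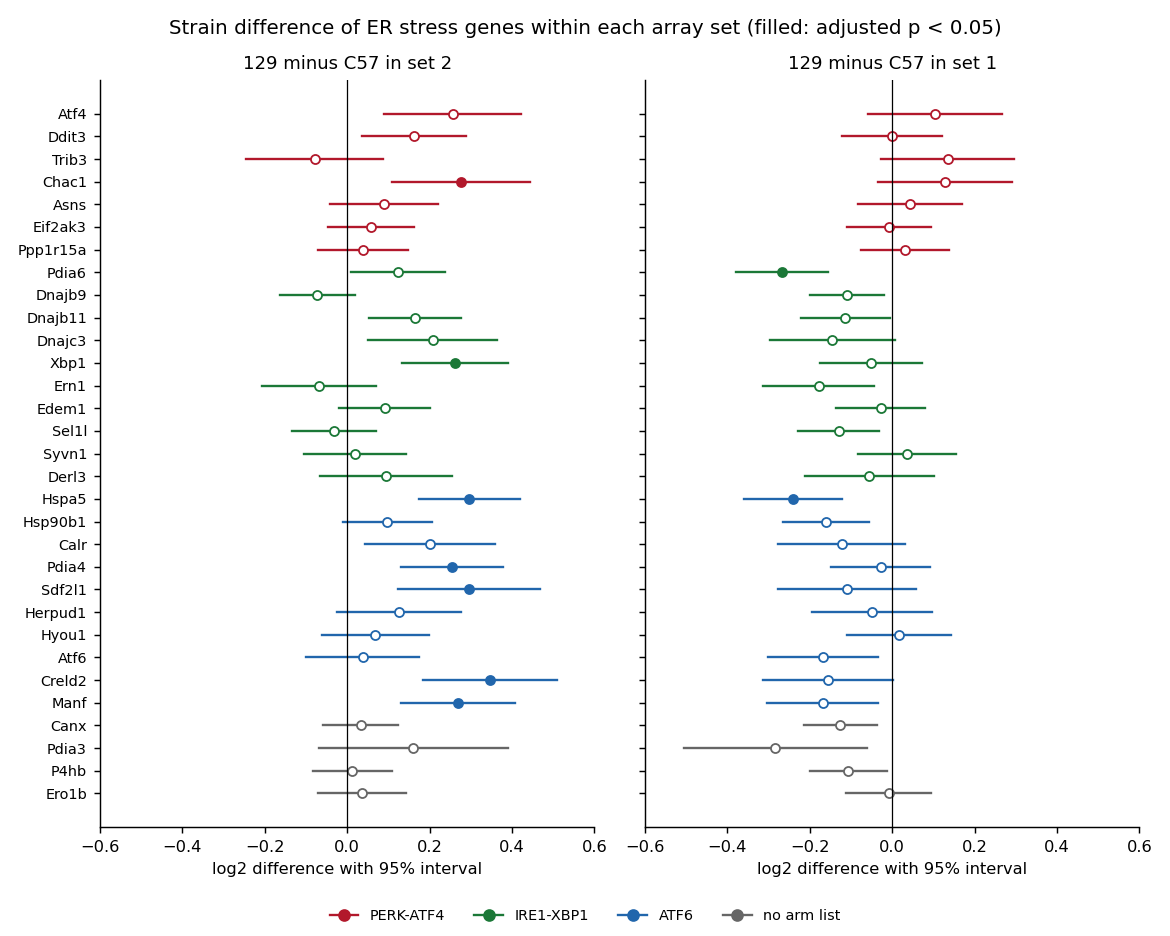
129 minus C57 difference (log2, with 95% interval) of each of the 31 genes in array set 2 (left) and set 1 (right), coloured by arm, with genes that passed filled. In set 2 the 7 filled points are all positive, and in set 1 the 2 filled points, Pdia6 and Hspa5, are negative.

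Taken in 129 alone, set 2 minus set 1 passed for 6 of 31 genes, all higher in set 2 (19.4%), against 730 of 13071 genes (5.58%), of which 426 were higher in set 2 (3.26%). These were Manf (0.41), Hspa5 (0.39), Sdf2l1 (0.35), Pdia6 (0.29), Xbp1 (0.29) and Dnajb11 (0.20). In C57 alone 2 of 31 passed, both lower in set 2 (6.45%), namely Edem1 (-0.20) and Canx (-0.18). Of all genes 356 passed there (2.72%), 216 of them lower in set 2 (1.65%) and 140 higher (1.07%). The KO and the WT arrays each showed positive values for the strain difference between sets, 0.38 in KO arrays (SE 0.12, adjusted p = 0.427) and 0.69 in WT arrays (SE 0.12, adjusted p = 0.00817) for Hspa5. Of the 31 genes 0 passed in KO arrays alone (0.00765% of all genes), where 7 had an unadjusted p under 0.05, and 1, Hspa5, in WT arrays alone (0.184%, positive genes 0.161%).

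The sets came from the data, and the fit was repeated with a split by the lower and higher sample numbers within each group. That split, chosen after the data had been seen, moved only 1 array, so the repeat is nearly the same test. Hspa5 then had 0.51 (adjusted p = 0.00203), Creld2 0.49 (0.0245), Manf 0.44 (0.0143) and Pdia6 0.39 (0.00724), and 4 of 31 again passed. Of the 3 Hspa5 probe sets, 2 passed, with 0.54 and 0.69, and the dimmest did not (-0.14, adjusted p = 0.682). With the mean of its 2 probe sets Pdia6 had 0.18 (adjusted p = 0.138) and did not pass, against 0.39 with the brighter one alone. Without 129 KO array 59 the values were 0.53 for Hspa5, 0.47 for Creld2, 0.39 for Manf and 0.35 for Pdia6, and each passed. RNA quality and tissue content also varied. The actin 3' minus 5' signal, which rises as RNA degrades, was 1.15 ± 0.24 in 129 and 1.20 ± 0.29 in C57 in set 2, against 1.50 ± 0.50 in 129 and 1.36 ± 0.17 in C57 in set 1, and with it as a covariate Hspa5 had 0.54 (adjusted p = 0.00171). Striatum markers were positive in 9 of 9 tested for the same difference (median 0.25, 0 passing), with a summed signal of 73.05 to 79.93 in 129 and 71.02 to 80.49 in C57 in set 2, against 72.28 to 79.79 in 129 and 72.56 to 83.73 in C57 in set 1. With that level as a covariate Hspa5 had 0.55 (adjusted p = 0.00141) and Manf 0.38 (adjusted p = 0.0549). Microglia markers were positive in 5 of 5 (median 0.24, 0 passing). Their summed signal was 35.85 to 37.28 in 129 and 35.70 to 37.60 in C57 in set 2. In set 1 it was 34.77 to 36.22 in 129 and 36.01 to 38.08 in C57. Blood vessel markers were positive in 3 of 4 (median 0.07, 0 passing). For set 2 minus set 1 in 129, 3 of 4 vessel markers (median 0.22) and 1 of 5 microglia markers passed. Of all genes 5.58% passed there. For 129 minus C57 in set 1, 2 of 5 microglia markers passed, against 4.52% of all genes. The covariate fits only describe how the values moved, and the part of RNA quality, striatum, microglia and vessels in these differences was not tested.

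The genes also varied together from array to array. After group means were removed, 10 of the 30 other genes correlated with Hspa5 over 37 arrays at a permutation p adjusted over the 30. Of the 30 coefficients 26 were positive. Arrays were permuted within groups and across the 2 sets, so these p-values do not set aside the differences between the sets. The median coefficient was 0.30, against 0.00 over all genes tested. Single genes outside the list reached values as high, and the highest among all other genes were Chordc1 with 0.87 and Rrp36 with 0.77. The counts that passed are given without a share of all genes. They therefore do not show that varying with Hspa5 is particular to these genes. Manf had r = 0.78 (rho = 0.79), Xbp1 r = 0.76 (rho = 0.72), Dnajb11 r = 0.74 (rho = 0.78) and Creld2 r = 0.70 (rho = 0.62), each with a 2-sided permutation p of r of 1e-05, the smallest that 100000 permutations can give, and an adjusted p of 7.5e-05. Pdia6 had r = 0.76 (rho = 0.74, adjusted p = 0.00012) and Hsp90b1 r = 0.60 (rho = 0.58, adjusted p = 0.00045). Dnajc3, Pdia4, Sdf2l1 and Calr also passed, with r from 0.51 to 0.56. At the other end stood Trib3 (r = -0.29, rho = -0.21, adjusted p = 0.219), Dnajb9 (r = -0.14, rho = -0.15, adjusted p = 0.548) and Asns (r = -0.10, rho = -0.23, adjusted p = 0.681).

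**Figure D5:**
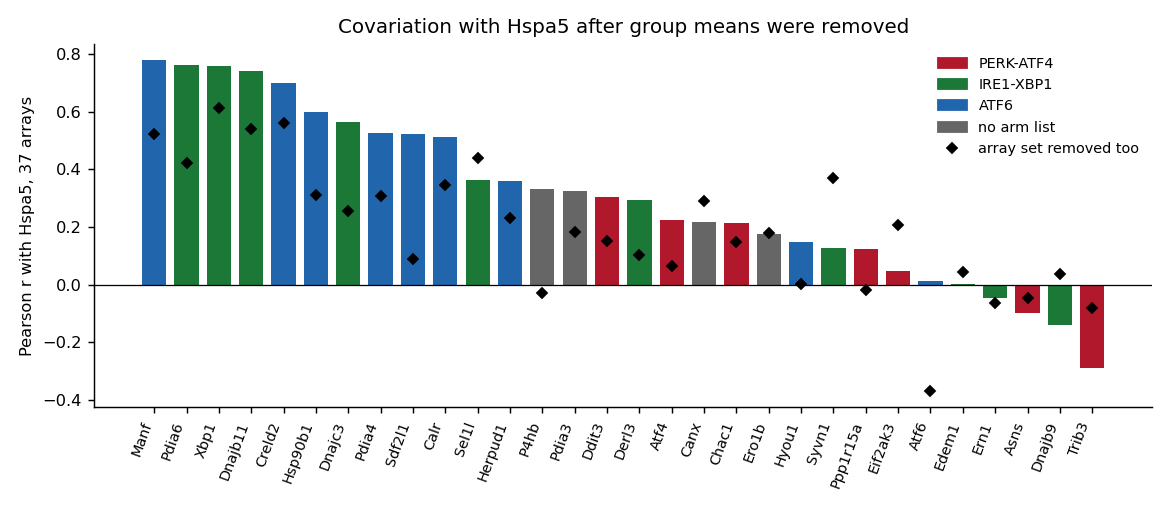
Pearson r with Hspa5 over 37 arrays after group means were removed (bars, coloured by arm), and after array set was removed too (diamonds). Manf, Pdia6, Xbp1, Dnajb11 and Creld2 have the highest bars, from 0.78 to 0.70, and their diamonds lie between 0.42 and 0.61.

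Part of this lay between the sets. With the set removed as well, 4 of 30 passed, namely Xbp1 (r = 0.61), Creld2 (0.56), Dnajb11 (0.54) and Manf (0.52). The median over the 30 was then 0.18, against -0.01 over all genes tested, and Chordc1 had 0.71. Manf had 0.52 in set 2 alone and 0.54 in set 1 alone, Xbp1 0.56 in set 2 and 0.70 in set 1, Dnajb11 0.60 in set 2 and 0.47 in set 1. Creld2 had 0.57 in set 2 and 0.54 in set 1, and Pdia6 0.31 in set 2 and 0.54 in set 1. In either set alone 0 of 30 passed after adjustment, over 18 and 19 arrays. Without the 2 arrays farthest from the Hspa5 median, Manf had 0.75, Pdia6 0.74, Dnajb11 0.73, Xbp1 0.68, Creld2 0.65 and Hsp90b1 0.53, and 10 of 30 passed.

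The spread among arrays of a group had a median SD of 0.149 over the 31 genes, against 0.161 over all genes tested. It was widest for Pdia3 (0.28), Sdf2l1 (0.22) and Creld2 (0.22) and narrowest for P4hb (0.094), Dnajb9 (0.098) and Canx (0.10). P4hb, protein disulfide isomerase, averaged 8.41 ± 0.14 in 129 KO and 8.38 ± 0.094 in 129 WT, and 8.45 ± 0.051 in C57 KO and 8.44 ± 0.06 in C57 WT. Sdf2l1 averaged 4.66 ± 0.20 in 129 KO and 4.66 ± 0.34 in 129 WT, and 4.61 ± 0.18 in C57 KO and 4.55 ± 0.14 in C57 WT. Once array set was removed too, the SD of Hspa5 was 0.12 in place of 0.20, and that of Atf4 was 0.18 in place of 0.17.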

How the data were processed

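The deposited table holds log2 signals of 45101 probe sets for 37 arrays, made by the authors, and the submitters' processing notes name MAS5 and GCRMA without version or role. Array medians of 4.30 to 4.36 show that the arrays had been brought to a common level. A gene was taken from probe sets with a single symbol, and genes whose highest group mean lay under the 40th percentile, 3.60, were left out. limma 3.58.1 in R 4.3.3 was fitted with 1 mean per group to all 37 arrays and tested on simulated data. Correlations used 100000 permutations. They were computed in Python 3.11.15 (pandas 2.3.3, SciPy 1.17.1, NumPy 2.4.6) and drawn with matplotlib 3.10.9.

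The 31 genes, the arms, classes, wider list and marker lists were chosen with earlier results of these data known. Named with values were Hspa5, Ddit3, Xbp1, Atf4, the sensors, every gene that passed, the 3 extremes in each direction of each comparison, and the extremes of spread and of correlation. Alternatives changed the filter, the normalization, the probe set rule, the variance model, array weights, covariates, array sets and arrays left out. The number of arrays limits the precision.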

Additional observations from a re-analysis of the deposited data

Results flagged for a closer look

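Within each group of 9 or 10 arrays, 124 sets of values, 1 for each of the 31 genes in each of the 4 groups, were examined for an array far from the others. Chance alone gives about 1 in 20 such sets, and 14 values stood apart. The 124 sets share the same 37 arrays and are not independent, so no excess can be read from the 14.

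In 129 KO lobes, array 59 stood apart as the highest for 4 genes. Without standing apart, it was also the highest for Xbp1, Chac1, Manf, Ddit3, P4hb, Pdia4, Creld2 and Ppp1r15a. For Hyou1, Dnajb9, Atf6 and Syvn1 array 59 was the lowest of its group. The 4 values that stood apart were these. The signal of array 59 was 8.30 for Pdia6 (next 7.96), 8.05 for Dnajb11 (next 7.75), 8.46 for Herpud1 (next 7.98) and 9.60 for Asns (next 9.20). Array 59 also had the lowest summed log2 signal of the 4 neuron markers among all 37 arrays, 40.45, with the next at 42.15, and its part in these values was not tested. Array 53 was lowest for Ern1, at 5.55 (next 5.81). In 129 WT lobes, array 73 was lowest for Pdia3, at 7.67 (next 8.48), and for Herpud1, at 7.51 (next 7.79), and highest for Trib3, at 4.60 (next 4.09). Array 73 had the highest actin 3' minus 5' signal of the 37 arrays, 2.76, a sign of RNA degradation.

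In C57 KO lobes, array 10 was lowest for Pdia3, at 7.95 (next 8.64), and for Pdia4, at 4.37 (next 4.62), and its actin 3' minus 5' signal, 1.94, ranked next below that of array 73. The part of RNA quality in these values was not tested. Array 17 was lowest for Calr, at 10.29 (next 10.75), and array 8 was highest for Ero1b, at 7.19 (next 6.92). In C57 WT lobes, array 33 was lowest for Trib3, at 3.74 (next 3.95), and array 29 was highest for Asns, at 9.23 (next 9.09).

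The 129 minus C57 difference was larger in array set 2 than in set 1 by 0.54 for Hspa5, 0.50 for Creld2, 0.44 for Manf and 0.39 for Pdia6, by limma's test of that difference.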

How the results depend on the processing

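For loss of Wfs1, 0 of the 31 genes passed in 129, in C57, over both strains and for the difference between strains, under all 13 or 14 alternatives each and with each of the 37 arrays left out. No paired analysis was possible because no sample number is shared between groups. The number of arrays limits what could be seen, and the 95% intervals of 6 genes in 129 and 7 in C57 reached past 0.25 on the log2 scale.

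For 129 minus C57 in WT, 1 passed in set 2 alone, against 0. In KO, 0 passed with only the groups compared, in set 1 alone and in set 2 alone, against 1, and 0 to 2 passed with an array left out. Over both genotypes, 1 passed with no filter, median centring, the mean of probe sets or every probe set, and 4 in set 2 alone, against 2, though these 4 were Hspa5, Creld2, Pdia4 and Xbp1 and neither Chac1 nor Atf4 passed in either set alone, and 1 to 2 with an array left out. Hspa5 was there -0.24 in set 1 alone (limma adjusted p = 0.0136), against 0.02. For the strain difference between sets, 9 passed with array weights, 0 in KO arrays alone and 1 in WT arrays alone, against 4, and 4 to 5 with an array left out. Of the correlations with Hspa5, 4 passed with the set removed and 0 in set 1 or set 2 alone, against 10. The causes were not tested. Single sets and genotypes hold fewer arrays.

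Over all genes, 14 passed for KO minus WT in C57, against 4 in set 1, 5 in set 2, 7 with only the groups compared, 6 with the striatum covariate and 6 to 17 with an array left out. Over both strains 3 passed, against 10 with array weights, 1 in set 2, 2 in set 1, 5 with quantile normalization and 3 to 5 with an array left out. For the difference between the KO effects 2 passed, against 0 in set 2, 1 in set 1, 3 with the mean of probe sets and 2 to 4 with an array left out. For 129 minus C57, 269 passed in WT, against 679 with array weights, 59 in set 1 and 117 in set 2, and 400 in KO, against 256 in set 1, 28 in set 2 and 257 with only the groups compared. Over both genotypes 955 passed, against 366 in set 2.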

Other observations

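Genes outside the 31 were chosen here after their values had been seen. Chordc1, which encodes a partner of Hsp90, had the highest correlation with Hspa5 of all other genes, r = 0.87 over the 37 arrays and 0.71 once array set was removed too. Rrp36 followed with 0.77, Erc1 with 0.76, H2aw with 0.76 and Slc5a3, the inositol transporter, with 0.75. With the set removed the coefficient was 0.35 for Rrp36, 0.51 for Erc1, 0.39 for H2aw and 0.46 for Slc5a3.

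Chordc1 also ranked 2 for the strain difference in set 2 minus that in set 1, with 0.57 (SE 0.09, limma adjusted p = 0.000699), between Fosl2, an AP-1 factor, with 0.92 (SE 0.13, adjusted p = 0.000699) and Hspa5. Dbp, a clock output factor, came next with -0.72 (SE 0.12, adjusted p = 0.00109). Mettl16 had 0.63, P4ha1, a collagen prolyl hydroxylase, 0.56, and Etfbkmt 0.95.

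In the wider list of the response, Slc7a11, the cystine transporter under ATF4, was higher in set 2 than in set 1 in both strains, by 0.55 in 129 (adjusted p = 8.66e-05) and 0.33 in C57 (adjusted p = 0.0433). Slc7a5, an amino acid transporter also under ATF4, was lower in set 2 in 129, with -0.36 (adjusted p = 0.0113), as was Vldlr with -0.37 (0.00373) and Txndc5 with -0.19 (0.0329). Selenok (0.33), Ganab (0.20), Spcs2 (0.16) and Vcp (0.16) were higher in set 2 in 129, and Mbtps2 was lower in set 2 in C57 (-0.20). For 129 minus C57, Derl2 (0.39) and Spcs3 (0.18) were higher and Slc7a5 (-0.38) was lower in set 2, and Nfe2l2 (-0.32), Eif2ak1 (-0.28) and Ssr1 (-0.17) were lower in set 1. Each of these passed an adjusted p of 0.05.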
